A study of Rattus norvegicus with 24 samples.

Results

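The neuropeptide Y and somatostatin systems were followed in the rat nucleus accumbens through 9 genes, which are 9 of the 19213 genes with a RefSeq symbol in the deposited table. They are the peptide precursors Npy (neuropeptide Y), Sst (somatostatin) and Cort (cortistatin), the neuropeptide Y receptors Npy1r, Npy2r and Npy5r, and the somatostatin receptors Sstr1, Sstr2 and Sstr3. Each gene was read from the transcript cluster (the set of array probes placed on one transcript unit) whose gene symbols include it, and where several clusters carried the symbol the one with the highest mean over the 24 arrays was taken. The study asked how gene expression differs between rats that keep taking methamphetamine in spite of footshocks and rats that stop. All animals were male Sprague Dawley rats with intravenous catheters, and each array held RNA of 1 rat. Control rats (CT, 6 arrays) self-administered saline and were not shocked. Shock-resistant rats (SR, 6 arrays) self-administered dl-methamphetamine and kept up their intake when a part of their rewarded lever presses was followed by a footshock. Shock-sensitive rats (SS, 6 arrays) had the same training and cut their intake under the shocks. Rats of the yoked groups, YSR (3 arrays) and YSS (3 arrays), took saline and got a shock they had not earned, with a saline infusion, whenever their SR or SS partner was shocked. Tissue was taken after about a month without drug or shock, on the day after drug seeking in response to cues had been tested a final time. SR and SS rats were separated after the fact by their behaviour, not assigned, and the SR and YSR rats received more shocks than the SS and YSS rats.

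Neuropeptide Y and somatostatin are made together in a sparse class of striatal GABA interneurons, which also make nitric oxide and spread over both the ventral and the dorsal striatum. Both peptides act through receptors coupled to Gi proteins, which lower cyclic AMP and open potassium channels, so that they mostly damp the cells and terminals that carry the receptors. Cortistatin is a close relative of somatostatin that binds the same receptors and is best known from cortical interneurons.

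The promoters of the peptide genes are shown because Npy and Sst moved together from rat to rat, and that of Sstr2 because it holds the same 8 letters as Sst. The sequences are from RefSeq, build GRCr8, 5′ to 3′ on the strand of the gene, and windows of 250 bases before to 50 bases after the annotated start were matched for all 9 genes. Both strands were searched for TGACGTCA (the cyclic AMP response element, which reads the same on both strands), the TATA box as TATAAA, the GC box as GGGCGG and the CCAAT box, and capitals mark the matches. For Npy (chr4:80211861-80212110, plus strand) and Sstr2 (chr10:99163103-99163352, plus strand) the 250 bases before the start are printed. For Sst (chr11:90461537-90461566, plus strand) 30 bases around the start are printed.
Npy: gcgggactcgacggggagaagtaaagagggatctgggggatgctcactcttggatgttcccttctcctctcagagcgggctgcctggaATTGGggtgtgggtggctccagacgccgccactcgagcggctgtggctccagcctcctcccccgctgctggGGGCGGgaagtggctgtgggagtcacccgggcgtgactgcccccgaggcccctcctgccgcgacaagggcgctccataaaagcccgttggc
Sst: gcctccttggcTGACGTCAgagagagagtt
Sstr2: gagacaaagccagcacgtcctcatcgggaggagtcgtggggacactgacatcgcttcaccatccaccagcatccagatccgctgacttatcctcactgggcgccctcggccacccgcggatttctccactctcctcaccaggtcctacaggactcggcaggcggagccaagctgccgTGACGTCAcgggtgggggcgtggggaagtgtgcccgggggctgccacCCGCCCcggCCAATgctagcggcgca
In Sst the response element lay at bases 3 to 10, counting the annotated start as base 1, and in Sstr2 at bases -73 to -66. Of all 33469 promoter windows, 1.83% held TGACGTCA, and among the 9 genes only the Sst and Sstr2 windows did. The Npy window held CCAAT on the opposite strand at bases -162 to -158 and GGGCGG at bases -91 to -86, letters that 37.5% and 33.1% of all windows hold. TATAAA, found in 14.2% of all windows, was in none of the 9. These matches describe letters and not bound sites.

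The deposited values are log2 signals, so a difference of 1 is a doubling. The arrays carry negative controls. A gene is called above background on an array when its signal was over the 95th percentile of that array's negative controls. This percentile lay between 9.63 and 10.32. The median of the negative controls (5.83 to 6.08) was itself above the median over all clusters (4.87 to 5.22). Cell type markers such as Gfap and Chat were below background on all arrays, so a signal below it does not show absence. Of 10 striatal projection neuron markers, 6 were above background on all 24 arrays and none was below it on all of them. SS replicate 1 stood apart with a mean of 8.57 over 6 choroid plexus markers, against at most 5.40 on the other arrays, so the differences that involve the SS group are also given without it where the text describes them for a member. Over all 68842 clusters, the median difference was -0.07 in SRvsCT. Setting all arrays to the same median added 0.11 to every SRvsCT difference, and the share of clusters with an unadjusted p under 0.05 that were higher in SR went from 30.6% to 76.8%. The array titles of the CT, SR and SS groups have a mark in brackets that is missing from those of the yoked groups. What it stands for is not stated, and if it is a batch, it cannot be told apart from the difference between yoked and other rats.

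Transcripts of both striatal peptides were abundant in every rat, and neither differed between groups beyond the spread between rats. The 6 receptors were below background on all 24 arrays, so their signals are given as log2 differences with no fold. Cortistatin could not be read from the cluster that its symbol selected, as described below. No member had an adjusted p under 0.05 in any of the 8 pairwise comparisons, in the difference of differences between the methamphetamine groups and their yoked groups, or in the F test over the 5 groups (limma, Benjamini-Hochberg adjustment over all clusters). For the adjusted calls the share of all clusters was 0.338% in SRvsCT, 0.00145% in SSvsCT and 0 in the others and in the F test. The share in SRvsCT stands for 233 clusters, and it rested on single rats, since leaving out 1 array gave from 2 clusters (without CT replicate 2 or SR replicate 3, 5 or 6) to 1273 (without SR replicate 1). In tissue samples, fewer cells of a type and less RNA in each cell cannot be told apart.

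Npy was measured by 40 probes on chromosome 4 (79574000 to 79581212, plus strand, coordinates of the deposited table). Its cluster holds the single RefSeq mRNA of the gene. In CT rats the signal ran from 12.38 to 13.11 with a median of 12.64, in SR rats from 11.99 to 13.02 with a median of 12.60, and in SS rats from 11.97 to 12.86 with a median of 12.45. The 3 YSR rats had 12.33, 12.68 and 12.62, and the 3 YSS rats 12.88, 12.66 and 12.39. All 5 groups thus overlapped, and the range within each group was wider than any gap between group means. The mean was 12.67 ± 0.29 (SD, n = 6) in CT, 12.54 ± 0.34 in SR and 12.48 ± 0.33 in SS. The mean of the yoked rats was 12.54 ± 0.19 (SD, n = 3) in YSR and 12.64 ± 0.25 in YSS. Npy was 0.910-fold in SRvsCT, with a 95% interval of 0.719 to 1.15 (limma adjusted p = 0.663). In SSvsCT it was 0.873-fold, with an interval of 0.690 to 1.10 (adjusted p = 0.760), and without SS replicate 1 the log2 difference moved from -0.20 to -0.09. Both intervals leave room for a loss or a small gain of the transcript. SRvsSS was 1.04-fold, with an interval of 0.823 to 1.32, and without SS replicate 1 the log2 difference of 0.06 became -0.04. Comparisons with the yoked groups ran from -0.16 in SSvsYSS (-0.06 without SS replicate 1) to -0.005 in SRvsYSR on the log2 scale, and all had an adjusted p of 0.978 or more.

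A separate cluster of 43 probes carries the same Npy mRNA on the same chromosome (79557853 to 79565059), 8941 bases before the cluster used. Across the 24 arrays its signal correlated with the first at Pearson's r = 0.987, and it lay 0.84 ± 0.05 (SD, n = 24) lower. It gave the same order of groups in the comparisons with CT, with log2 differences of -0.17 in SRvsCT and -0.22 in SSvsCT. Without SS replicate 1, SSvsCT was -0.11 in this cluster and -0.09 in the first. The order of SR and SS was then reversed in both clusters, with SRvsSS at -0.06 and -0.04. The probes of the copies may share targets, so these are not independent measurements of Npy.

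**Figure D1:**
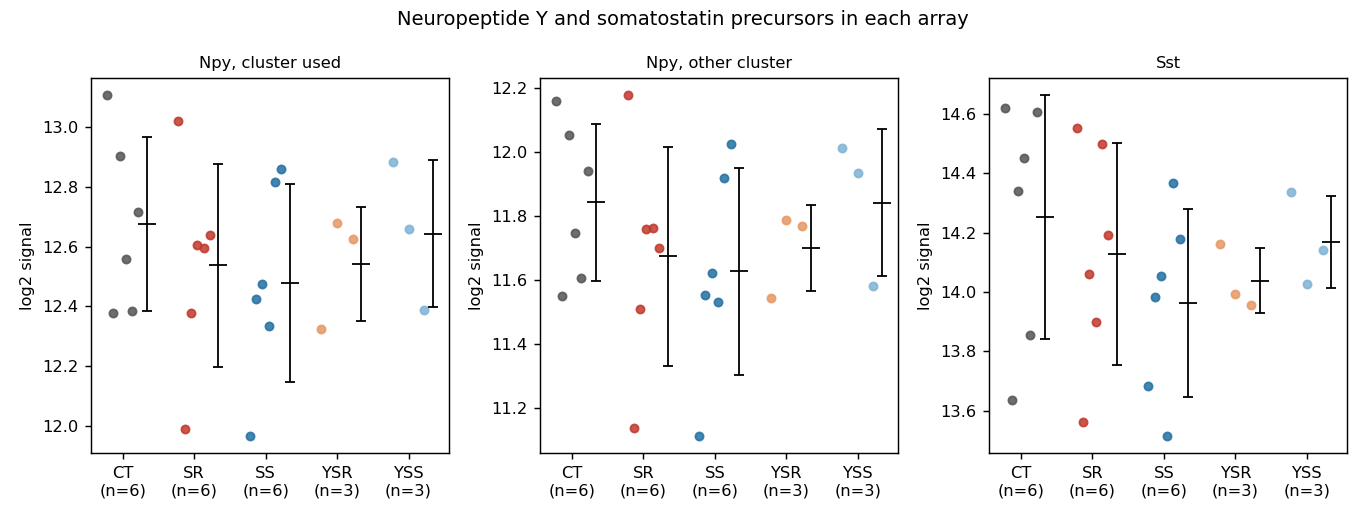
Log2 signal of Npy in the cluster used and in the other Npy cluster, and of Sst, for each of the 24 arrays (points) by group, with mean and SD (bars). The groups overlap in all panels, and the Npy mean runs only from 12.48 in SS to 12.67 in CT.

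Sst was measured by 30 probes on chromosome 11 (80358172 to 80359449, plus strand). Somatostatin, the partner of neuropeptide Y in these interneurons, is cut from this precursor. The signal ran from 13.64 to 14.62 in CT rats with a median of 14.40, from 13.56 to 14.55 in SR rats with a median of 14.13, and from 13.51 to 14.37 in SS rats with a median of 14.02. Values in YSR were 14.16, 13.99 and 13.96, and those in YSS 14.34, 14.03 and 14.14. In the plot of the peptides the CT, SR and SS groups each spread over most of the whole range, while the yoked rats lay in its middle. Group means were 14.25 ± 0.41 in CT, 14.13 ± 0.37 in SR and 13.96 ± 0.32 in SS (SD, n = 6), and 14.04 ± 0.11 in YSR and 14.17 ± 0.16 in YSS (SD, n = 3). The widest gap was SSvsCT, where Sst was 0.819-fold with a 95% interval of 0.633 to 1.06 (limma adjusted p = 0.674). Without SS replicate 1 this log2 difference moved from -0.29 to -0.23, that of SRvsSS from 0.16 to 0.11 and that of SSvsYSS from -0.21 to -0.15. In SRvsCT it was 0.918-fold (0.709 to 1.19) and in SRvsSS 1.12-fold (0.867 to 1.45), both with an adjusted p above 0.7. Against their yoked groups, Sst differed by 0.09 in SRvsYSR and by -0.21 in SSvsYSS on the log2 scale, which was within the spread between rats. The adjusted p of the F test over the 5 groups was 0.938 for Npy and 0.883 for Sst.

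Rats with a high Npy signal for their group also had a high Sst signal. After each array was expressed as its distance from its group mean, Npy and Sst correlated over 24 arrays at Pearson's r = 0.747 (permutation within groups, p = 0.00052, adjusted p = 0.00433 over 25 relations) and Spearman's rho = 0.698 (permutation p = 0.00122, adjusted p = 0.0102). Without the arrays farthest from the median of Npy (SR replicate 2 and SS replicate 1), r was 0.682. It was 0.780 within CT, 0.845 within SR and 0.816 within SS, 6 arrays each. Among the 6 yoked arrays it was 0.038, so no relation was seen there. With so few arrays this value is imprecise, and its difference from the other groups was not tested.

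The Npy signal also went with that of the main cell class of the striatum. The mean signal of the 10 striatal projection neuron markers correlated with Npy at r = 0.800 (permutation p = 5e-05, adjusted p = 0.001) and rho = 0.759 (permutation p = 0.00011, adjusted p = 0.00275). Without SS replicates 1 and 6 r was 0.728, and it was 0.673 within CT, 0.833 within SR, 0.856 within SS and 0.912 among the yoked arrays. For Sst the same relation was weaker, at r = 0.485 (permutation p = 0.028, adjusted p = 0.117) and rho = 0.471 (permutation p = 0.0306, adjusted p = 0.132), with r = 0.438 without the same arrays. The mean of the markers did not set the groups apart, at 12.36 ± 0.46 in CT, 12.44 ± 0.43 in SR and 12.40 ± 0.64 in SS (SD, n = 6), or 12.62 ± 0.37 in SS without replicate 1 (SD, n = 5). All points share the array normalization. How much of the spread of Npy between rats goes with the share of striatal tissue in the sample was not tested.

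**Figure D2:**
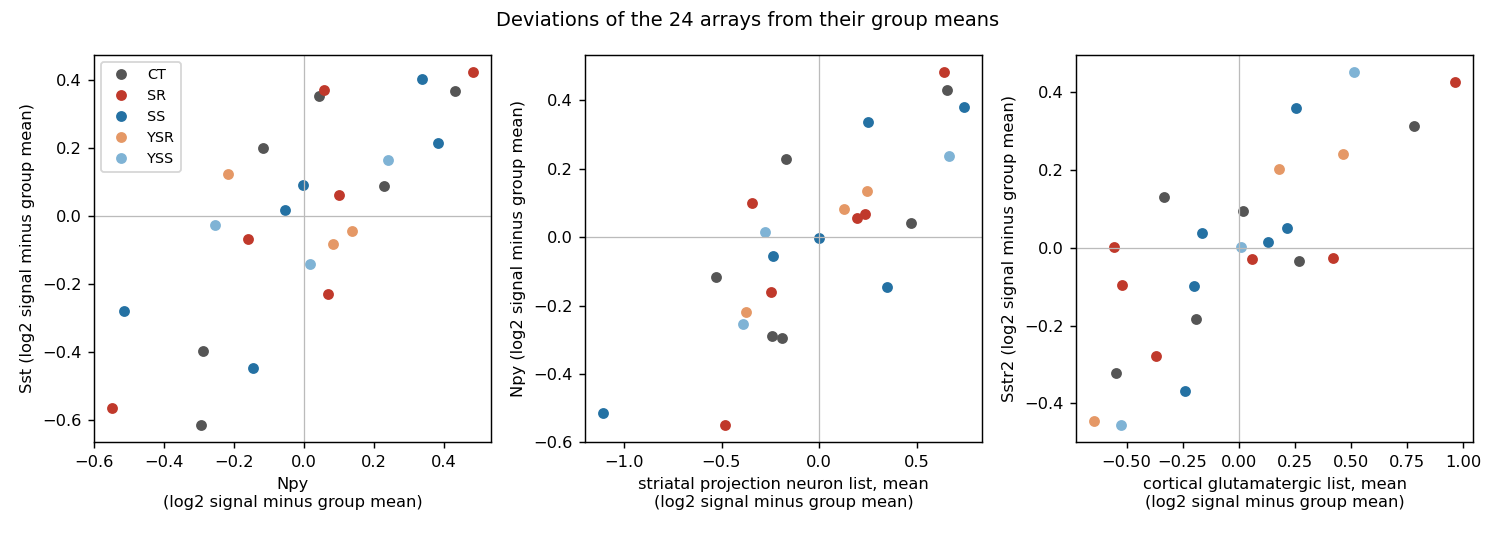
Distance of each of the 24 arrays from its group mean (log2 signal) for Npy against Sst, the striatal projection neuron list against Npy, and the cortical glutamatergic list against Sstr2, coloured by group. Over all arrays the points rise together in all panels, with r of 0.747, 0.800 and 0.798. Among the 6 yoked arrays r of Npy with Sst was 0.038.

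Genes that most resemble the peptides were sought among the 3696 other genes whose mean signal over the arrays was above the bioB spike-in, by the correlation of distances from group means over 24 arrays. For Npy they were Lrrtm3 (r = 0.891), a synaptic adhesion protein, Penk (r = 0.852), the enkephalin precursor of striatopallidal neurons, and Runx1t1 (r = 0.850), a transcriptional corepressor. For Sst they were Myl12b (r = 0.771), a myosin light chain, Slc25a16 (r = 0.757), a mitochondrial carrier, and mrpl11 (r = 0.753), a mitochondrial ribosome protein. Npy ranked 4 among the genes most like Sst, while Sst ranked 78 among those most like Npy. These genes were picked as the highest of many and are a description.

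The other markers of these interneurons gave no separate reading. Of the list Npy, Sst, Nos1 (neuronal nitric oxide synthase), Tacr1 (the substance P receptor), Lhx6 and Nkx2-1 (transcription factors of their lineage) and Chodl (chondrolectin), the peptide genes were above background on all 24 arrays and the other 5 on none. No member of this list had an unadjusted p under 0.05 in any comparison. The median log2 difference over its 7 genes was 0.02 in SRvsCT, -0.11 in SSvsCT and 0.06 in SRvsSS, against -0.07, -0.03 and -0.03 over all clusters.

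Cortistatin needs its clusters told apart, because 4 clusters of the minus strand of chromosome 5 carry the symbol Cort together with those of its neighbours. The one with the highest mean, 742 probes over 152845 bases (165985761 to 166138605), holds only RefSeq transcripts of Kif1b, a kinesin that carries mitochondria and synaptic vesicle precursors along axons. It is called the Kif1b cluster here, and its values say nothing of cortistatin. The cluster that holds cortistatin's own mRNA has 30 probes (165942780 to 165944221). The remaining pair holds transcripts of Apitd1, a DNA repair and kinetochore gene, and an Ensembl transcript that carries the name 6PGD beside the symbols of its neighbours.

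Cortistatin's own cluster was below background on all 24 arrays. Its signal ran from 4.81 to 5.29 in CT rats with a median of 4.96, from 4.70 to 5.13 in SR rats with a median of 4.97, and from 4.68 to 5.54 in SS rats with a median of 5.03. Among yoked rats, YSR gave 4.92, 5.12 and 4.96, and YSS 5.21, 4.53 and 5.30. All groups overlapped. Log2 differences lay between -0.14 (SRvsSS, 95% interval -0.41 to 0.13) and 0.07 (SSvsCT, -0.20 to 0.34), with limma adjusted p of 0.788 and more. Without SS replicate 1 these were -0.17 and 0.10. No change of the transcript was detected, and at this signal a change could have been missed.

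The Kif1b cluster had the smallest p of the 9 selected clusters. Its signal ran from 13.76 to 13.99 in CT rats with a median of 13.91, from 14.01 to 14.23 in SR rats with a median of 14.15, and from 13.95 to 14.09 in SS rats with a median of 14.02. In YSR rats the signals were 14.06, 13.99 and 13.90, and in YSS rats 13.94, 13.87 and 13.76. Each SR rat was above each CT rat, and each SS rat was above each YSS rat. Of all clusters, 0.553% stood wholly higher in SRvsCT and 1.56% in SSvsYSS. In SRvsCT the difference was 0.25 on the log2 scale (95% interval 0.13 to 0.37), which is 1.19-fold, with an unadjusted p of 0.000305 and an adjusted p of 0.0629 (limma), so it missed the threshold. The exact two-sided permutation p was 0.00216, the smallest that 6 against 6 arrays can give. The adjusted p was under 0.05 in 3 alternatives, at 0.0335 when only clusters over the bioB spike-in were tested, 0.0416 with array weights and 0.0272 without SR replicate 1, the lowest SR rat. It was 0.051 with equal array medians, 0.0768 in the trended robust fit, 0.124 after quantile normalization and 0.237 with only the groups compared, and up to 0.139 when other single arrays were left out. SSvsCT, SRvsSS, SRvsYSR and SSvsYSS gave 0.12, 0.12, 0.16 and 0.17 on the log2 scale, each with an unadjusted p under 0.05 and an adjusted p above 0.5. Without SS replicate 1, SSvsCT was 0.11 and no longer under 0.05, while SRvsSS was 0.13 and SSvsYSS 0.16. Over all arrays left out in turn, the unadjusted p stayed under 0.05 in 24 of 24 fits in SRvsCT, 12 in SSvsCT, 16 in SRvsSS, 20 in SRvsYSR and 21 in SSvsYSS. YSRvsCT and YSSvsCT gave 0.08 and -0.04. The neighbouring clusters, both below background on all arrays, were higher in SRvsCT too, by 0.21 for Apitd1 (limma adjusted p = 0.238) and by 0.22 for 6PGD (adjusted p = 0.139).

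Mean signals of markers of oligodendrocytes, GABA neurons and hypothalamic neurons had higher group means in SR than in CT, though no marker of these lists had an adjusted p under 0.05. Means of other striatal interneurons, striatal projection neurons and astrocytes were also higher in SR, and those of the remaining cell lists were lower. At an unadjusted p under 0.05, 5.72% of all clusters were higher in SRvsCT and 13% lower, or 12.9% and 3.89% with equal array medians. Among clusters over the bioB spike-in 15.9% were higher and 5.38% lower, with a median of 0.03. Of the 5 oligodendrocyte markers measured (of 6 listed), 3 were above background on all arrays, and in SRvsCT 4 of 5 were higher at an unadjusted p under 0.05 and none lower, with a median of 0.29 against -0.07 over all clusters. Their mean ran from 11.98 to 12.48 in CT rats and from 12.30 to 13.08 in SR rats. It was 12.62 ± 0.24 in SS (SD, n = 6), or 12.59 ± 0.26 without SS replicate 1, and 12.29 ± 0.16 in YSR and 12.10 ± 0.20 in YSS (SD, n = 3). All 3 markers of GABA neurons were above background on all arrays, and 2 of them were higher in SRvsCT at an unadjusted p under 0.05. Their mean ran from 14.14 to 14.63 in CT and from 14.49 to 14.79 in SR, with group means of 14.48 in SS, 14.49 in YSR and 14.38 in YSS. Of the 8 hypothalamic markers, 7 were below background on all 24 arrays, and in SRvsCT 3 were higher and 1 lower, with a median of 0.23. Their mean ran from 4.91 to 5.43 in CT and from 5.28 to 6.25 in SR, with group means of 5.15 in SS, 5.05 in YSR and 5.08 in YSS. This list includes Oxt (oxytocin), its only gene above background on any array (2 of 24). The paper reports raised oxytocin transcripts in SR rats against CT rats, so the list mean in part restates that result. The list mean without Oxt was not tested. The part of these marker lists in the result for the Kif1b cluster was not tested. Genes whose pattern was close to that of this cluster included Aldoc (r = 0.907), an aldolase of astrocytes, and Abat (r = 0.891), the enzyme that breaks down GABA.

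**Figure D3:**
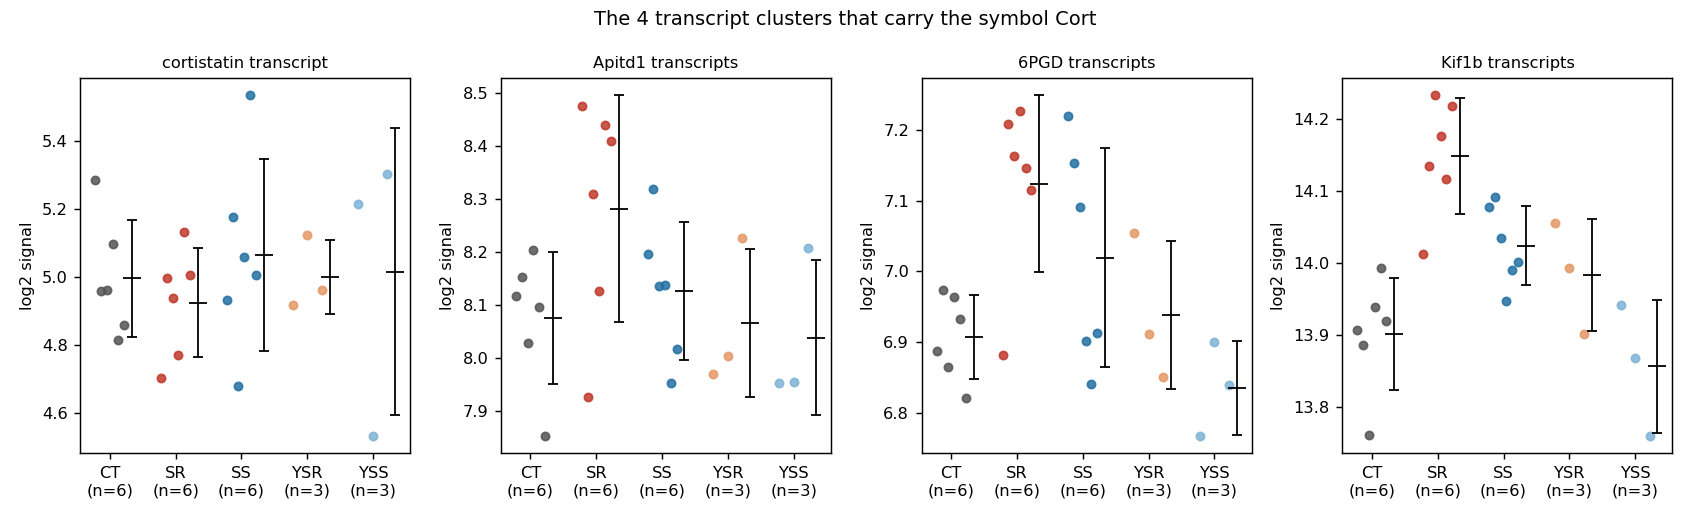
Log2 signal of the 4 clusters that carry the symbol Cort, for each of the 24 arrays (points) by group, with mean and SD (bars); the vertical scales differ. Cortistatin's own transcript overlaps in all groups, and in the Kif1b panel the 6 SR arrays, from 14.01 to 14.23, lie above the 6 CT arrays.

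Among the neuropeptide Y receptors, Npy1r carries much of the postsynaptic action of the peptide, Npy2r is best known as a presynaptic autoreceptor on neuropeptide Y terminals, and Npy5r is known for its part in feeding. Npy1r and Npy5r lie head to head on chromosome 16, and their clusters (24779480 to 24789105, minus strand, 60 probes, and 24797034 to 24805254, plus strand, 93 probes) are 7929 bases apart. The Npy2r cluster is on chromosome 2 (181528960 to 181538150, minus strand, 50 probes). All 3 were below background on each array. Over the arrays, Npy1r lay between percentiles 48.8 and 74.5 of the negative controls, Npy2r between 50.04 and 85.3, and Npy5r between 30.3 and 49.2.

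For Npy1r the signal ran from 6.07 to 6.56 in CT rats with a median of 6.32, from 6.10 to 7.0 in SR rats with a median of 6.44, and from 5.96 to 6.27 in SS rats with a median of 6.12. The YSR rats had 6.36, 6.44 and 6.16, and the YSS rats 6.31, 6.52 and 6.46. The SS rats formed the lowest group, all 6 below each YSS rat, and SR replicates 5 and 6 were the highest. A wholly lower position in SSvsYSS was held by 1.61% of all clusters. SRvsSS was 0.36 on the log2 scale (95% interval 0.10 to 0.61), with an unadjusted p of 0.00915 and an adjusted p of 0.693 (limma), and 0.33 without SS replicate 1. The exact two-sided permutation p was 0.0433. Leaving out each array in turn gave 0.25 to 0.43, with an unadjusted p under 0.05 in 24 of 24 fits and the lowest value without SR replicate 5. SSvsYSS was -0.31 (-0.63 to 0.004, adjusted p = 0.923), and -0.29 without SS replicate 1. The differences in SRvsCT and SSvsCT were 0.15 and -0.20 (-0.18 without SS replicate 1), with intervals that include 0.

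Npy2r ran from 6.33 to 6.98 in CT rats with a median of 6.71, from 6.07 to 7.87 in SR rats with a median of 6.93, and from 6.26 to 6.83 in SS rats with a median of 6.58. Values in YSR were 6.75, 6.33 and 6.66, and those in YSS 6.77, 6.81 and 6.54. SR rats held both the lowest and the highest value, so the groups overlapped. SRvsSS was 0.42 (0.03 to 0.81), with an unadjusted p of 0.0347 and an adjusted p of 0.705. Without SR replicate 5, the rat at 7.87, the difference was 0.24. The unadjusted threshold was missed in 5 of 24 fits, those without SR replicate 3, 5 or 6 or SS replicate 4 or 6. The difference was 0.43 without SS replicate 1. The exact permutation p was 0.132.

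Npy5r had the narrowest range of the 3. It ran from 5.38 to 5.57 in CT rats, from 5.24 to 5.56 in SR rats and from 5.11 to 5.47 in SS rats, with medians of 5.48, 5.40 and 5.38. Among yoked rats, YSR gave 5.38, 5.24 and 5.34, and YSS 5.24, 5.54 and 5.81. No comparison had an unadjusted limma p under 0.05 in the main fit, and the pairwise log2 differences lay between -0.21 (YSRvsYSS) and 0.08 (SRvsYSR). The exact two-sided permutation p was 0.039 in SSvsCT, at -0.13 (-0.14 without SS replicate 1), and 0.0357 in YSRvsCT, at -0.16. After quantile normalization the unadjusted limma p was 0.0467 in SSvsYSS and 0.0225 in the difference of differences (adjusted p = 0.815 and 0.9997).

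**Figure D4:**
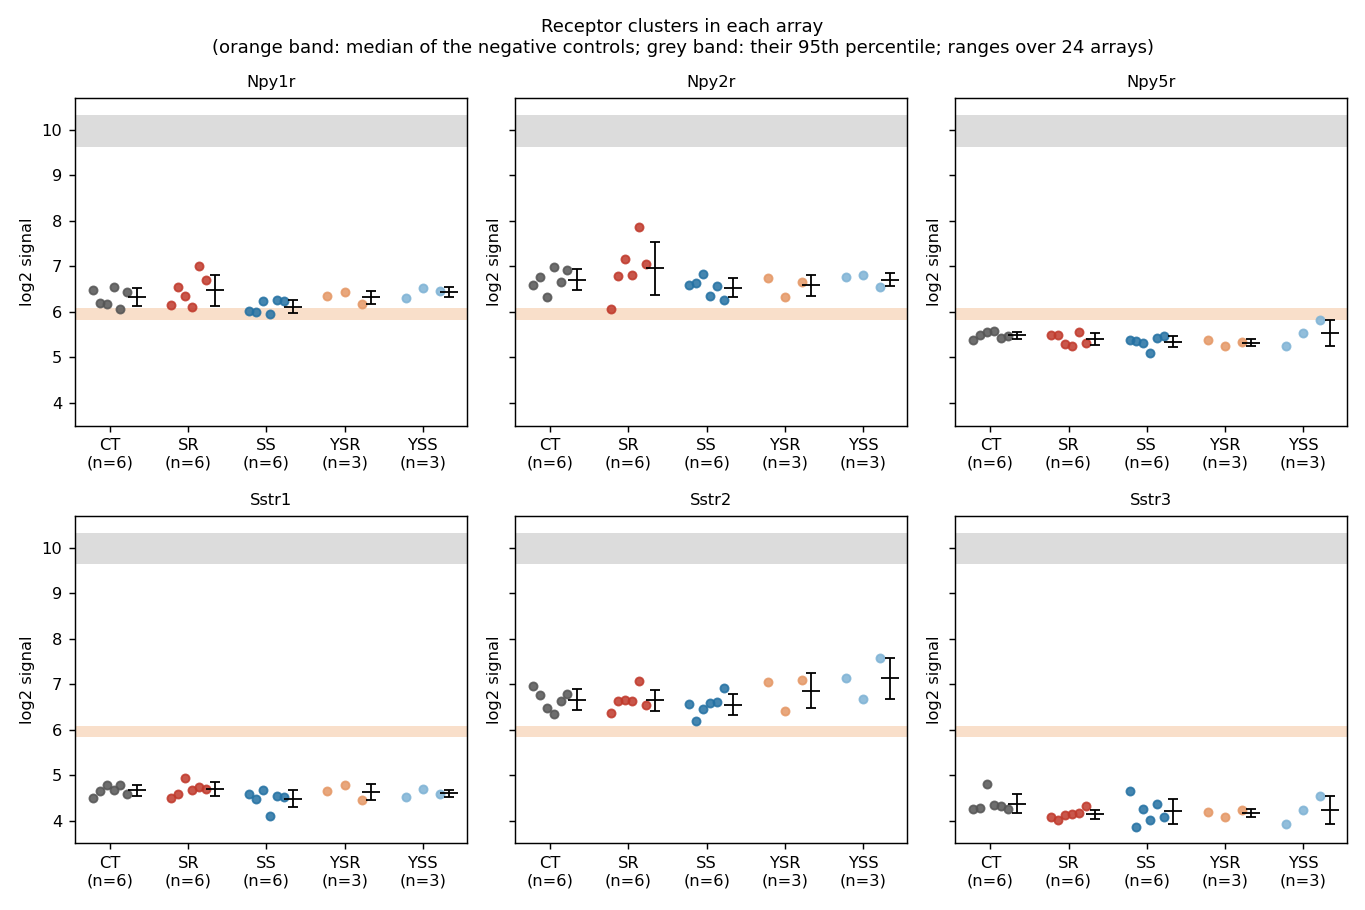
Log2 signal of the 6 receptor clusters for each of the 24 arrays (points) by group, with mean and SD (bars). The orange band is the range over arrays of the median of the negative controls (5.83 to 6.08) and the grey band that of their 95th percentile (9.63 to 10.32); every receptor point lies under the grey band.

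The somatostatin receptors are inhibitory too, with Sstr2 the main binding site for stable somatostatin analogs in brain and Sstr3 known for its place on neuronal cilia. Their clusters lie on chromosome 6 (Sstr1, 79254028 to 79258611, plus strand, 60 probes), chromosome 10 (Sstr2, 102136283 to 102143449, plus strand, 60 probes) and chromosome 7 (Sstr3, 119760881 to 119768082, minus strand, 40 probes). Sstr2 ran from 6.34 to 6.97 in CT rats with a median of 6.69, from 6.37 to 7.08 in SR rats with a median of 6.62, and from 6.18 to 6.91 in SS rats with a median of 6.58. In YSR rats the signals were 7.06, 6.41 and 7.10, and in YSS rats 7.13, 6.67 and 7.58. In each yoked group, all rats but 1 were above all CT rats. YSSvsCT was 0.47 on the log2 scale (95% interval 0.08 to 0.86), with an unadjusted p of 0.0206 and an adjusted p of 0.9999 (limma). In SSvsYSS the difference was -0.58 (-0.97 to -0.19), with an unadjusted p of 0.00544 and an adjusted p of 0.762, and it was -0.58 without SS replicate 1 also. Both rest in part on YSS replicate 3, without which they were 0.24 and -0.35 and missed the unadjusted threshold. The exact permutation p was 0.0714 for YSSvsCT and 0.0238 for SSvsYSS. SRvsCT was -0.01, and 0.10 when all arrays were set to the same median.

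The Sstr2 signal went with that of cortical neurons from rat to rat. The mean of 9 markers of cortical glutamatergic neurons, of which 2 (Lamp5 and Rorb) were above background on all arrays and 6 on none, correlated with Sstr2 within groups at r = 0.798 over 24 arrays (permutation p = 8e-05, adjusted p = 0.001) and rho = 0.759 (permutation p = 0.00027, adjusted p = 0.00338). Without CT replicate 1 and SR replicate 5 r was 0.742, and it was 0.744 within CT, 0.784 within SR, 0.776 within SS and 0.982 among the 6 yoked arrays. The mean of these markers was 7.94 in CT (7.40 to 8.73), 7.75 in SR (7.2 to 8.72), 7.38 in SS (7.14 to 7.63), 7.96 in YSR (7.31 to 8.42) and 8.04 in YSS (7.52 to 8.56). In YSSvsCT 2 of the 9 were higher at an unadjusted p under 0.05 and none lower, with a list median of -0.004, against -0.02 over all clusters. Of all clusters 1.76% were higher there and 2.81% lower. In SSvsYSS 2 of the 9 were lower and none higher, with a median of -0.78, against -0.005 over all clusters. Of all clusters 2.44% were higher in SSvsYSS and 2.99% lower. No adjusted p was under 0.05. The part of these markers in the Sstr2 differences was not tested. Of the remaining 22 relations between members and marker lists or the array median, none had an adjusted p under 0.05 by Pearson's r.

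Sstr1 and Sstr3 stood lowest among the negative controls, between percentiles 15.6 and 29.3 for Sstr1 and 12.3 and 29.1 for Sstr3, while Sstr2 lay between 53.1 and 79.4. Sstr1 ran from 4.5 to 4.79 in CT rats, from 4.5 to 4.95 in SR rats and from 4.11 to 4.68 in SS rats, with medians of 4.67, 4.69 and 4.53. The YSR rats had 4.66, 4.78 and 4.45, and the YSS rats 4.53, 4.69 and 4.58. SRvsSS was 0.21 (0.02 to 0.39), with an unadjusted p of 0.0327 and an adjusted p of 0.703, and without SS replicate 4, the lowest rat, the difference was 0.13. The unadjusted threshold was missed without SS replicate 4, SR replicate 3 or SR replicate 5, and without SS replicate 1 the difference was 0.23. Sstr3 ran from 4.25 to 4.80 in CT rats, from 4.01 to 4.32 in SR rats and from 3.86 to 4.64 in SS rats, with medians of 4.31, 4.13 and 4.17. Values in YSR were 4.20, 4.08 and 4.25, and those in YSS 3.92, 4.23 and 4.53. All 3 YSR rats were below each CT rat, a position held by 1.45% of all clusters, yet the exact two-sided permutation p was 0.143. SRvsCT was -0.24 for Sstr3 (-0.49 to 0.01, adjusted p = 0.287), with an exact two-sided permutation p of 0.00866. Without CT replicate 3, the highest rat, it was -0.15, and the unadjusted p was under 0.05 in 5 of 24 fits with 1 array left out. SSvsCT was -0.17 for Sstr3, and -0.26 without SS replicate 1.

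Counted with cortistatin's own cluster, the 9 genes gave few differences even at an unadjusted limma p under 0.05. In SRvsCT there was none, where 5.72% of all clusters were higher and 13% lower. In SSvsCT there was none either, where 2.47% were higher and 6.24% lower. Without SS replicate 1, each of these had 1 that was lower, Sstr3, by -0.24 in SRvsCT and -0.26 in SSvsCT. In SRvsSS 3 of 9 were higher in SR (Npy1r, Npy2r and Sstr1) and none lower, where 2.45% of all clusters were higher and 4.44% lower, or 4.53% and 2.15% with all arrays set to the same median. None of the 3 receptors was above background on any array. With each array left out in turn, Npy1r kept an unadjusted p under 0.05 in 24 of 24 fits, Npy2r in 19 and Sstr1 in 21. In YSSvsCT 1 was higher, Sstr2, where 1.76% of all clusters were higher and 2.81% lower. In SSvsYSS 1 was lower, Sstr2, where 2.44% were higher and 2.99% lower. YSRvsCT had none, with 1.42% of all clusters higher and 3.46% lower. YSRvsYSS had none, with 1.04% higher and 1.71% lower, and SRvsYSR none, with 1.98% higher and 3.15% lower. The comparisons share groups and are not independent of each other. With the Kif1b cluster in place of cortistatin's own, SRvsCT, SSvsCT, SRvsYSR and SSvsYSS each gained 1 that was higher and SRvsSS had 4.

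**Figure D5:**
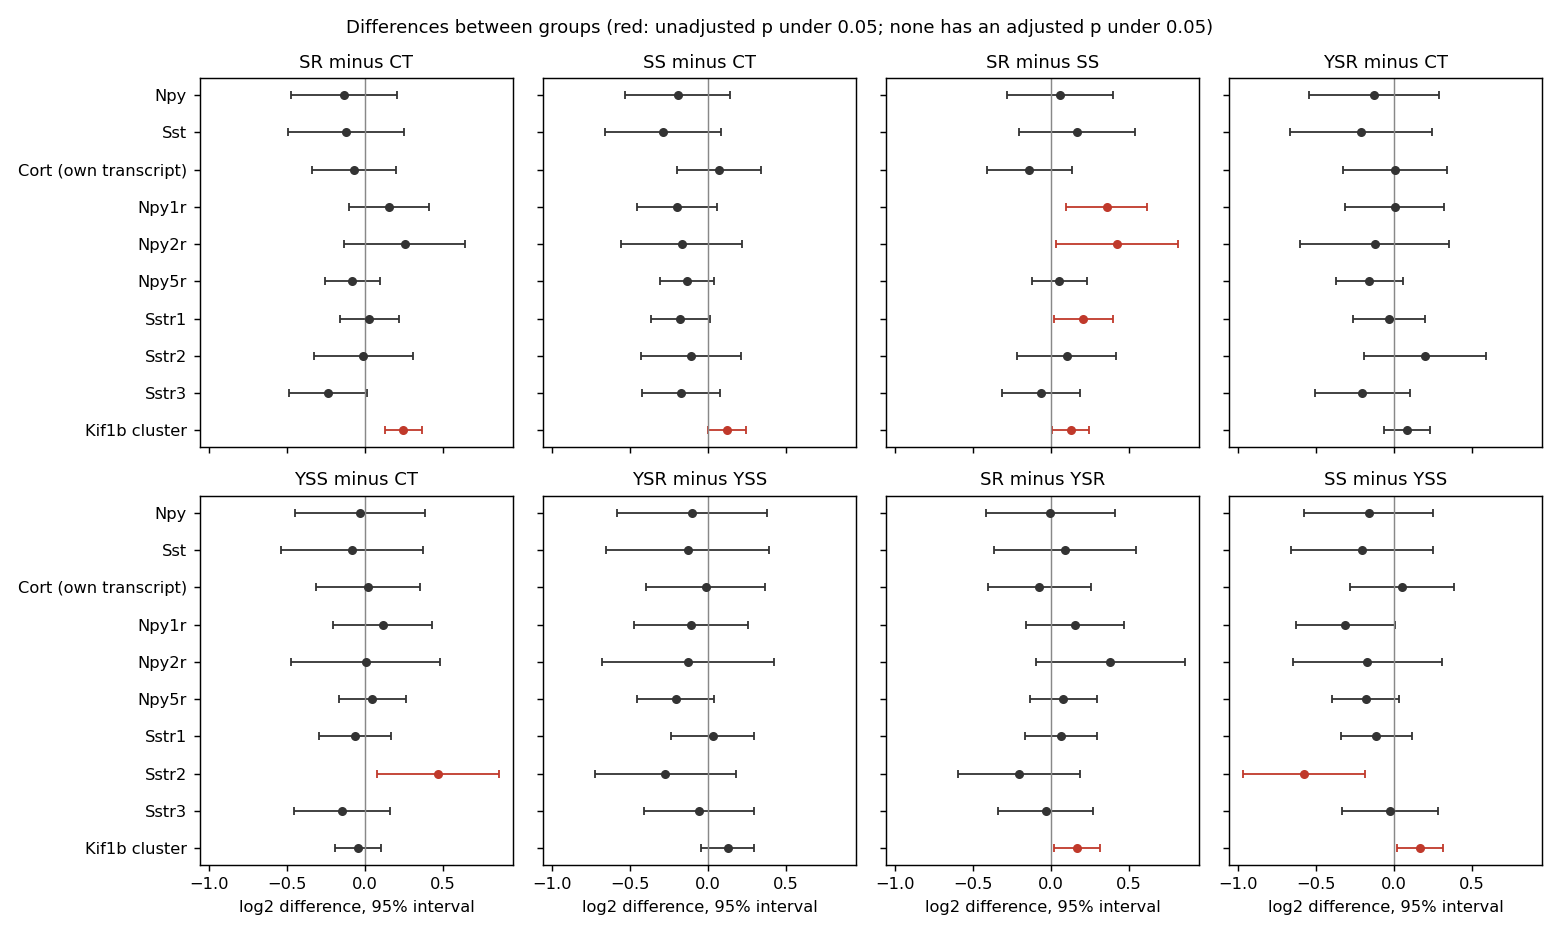
Log2 difference with 95% interval (limma) for the 9 genes, with cortistatin read from its own transcript, and for the Kif1b cluster, in the 8 pairwise comparisons. Red marks an unadjusted p under 0.05; no adjusted p is under 0.05, and the Npy and Sst intervals include 0 in all panels.

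Whether methamphetamine takers differed from their yoked partners more in one pair than in the other was tested as (SR-YSR)-(SS-YSS). The difference was 0.16 for Npy (95% interval -0.43 to 0.75) and 0.30 for Sst (-0.35 to 0.94), and without SS replicate 1 it was 0.06 and 0.24. For Npy1r it was 0.47 (0.02 to 0.91), with an unadjusted p of 0.0420 and an adjusted p of 0.9999 (limma), against 1.34% of all clusters that were higher and 2.09% that were lower at an unadjusted p under 0.05. Leaving out each array in turn kept the unadjusted p under 0.05 in 14 of 24 fits, and it was 0.0591 without SS replicate 1, where the difference was 0.44. The other members had intervals that include 0, among them Npy2r with 0.55 (-0.12 to 1.23) and Sstr2 with 0.37 (-0.18 to 0.92), or 0.56 and 0.38 without SS replicate 1.

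The rest of the peptide and receptor family was below background on all arrays. Of 6 listed genes, 5 had a cluster: Pyy (peptide YY), Ppy (pancreatic polypeptide) and the receptors Npy4r, Sstr4 and Sstr5. In SRvsCT 2 of the 5 were lower at an unadjusted p under 0.05, Npy4r by -0.24 and Sstr5 by -0.18 on the log2 scale, where 13% of all clusters were lower, or 3.89% with equal array medians. Sstr5 was also lower in SRvsYSR, by -0.22. The adjusted p of each was above 0.2.

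Of the enzymes and helpers that make or break down the peptides, all 9 had a cluster, and 5 (Pcsk2, Pcsk1n, Scg5, Cpe and Pam) were above background on all arrays. In SRvsCT 3 of 9 were higher at an unadjusted p under 0.05, with 5.72% of all clusters higher at that threshold, or 12.9% with equal array medians. Pam, which amidates the end of neuropeptide Y, was higher by 0.27, and Scg5, a helper of the convertase Pcsk2, by 0.22. The last of the 3, Ece1, an endothelin-converting enzyme, was higher by 0.19. Dpp4, which trims neuropeptide Y, was lower by -0.15, where 13% of all clusters were lower, or 3.89% with equal array medians. Ece1 and Dpp4 were below background on all arrays. Pam was also higher in SSvsCT, by 0.26 (limma adjusted p = 0.495). Pcsk1, a precursor convertase below background on all arrays, was higher in SRvsSS by 0.34, and Pcsk1n, its inhibitor, in SSvsYSS by 0.47. The median of the list in SRvsCT was 0.14, against -0.07 over all clusters. Of the 9 genes 6 were over the bioB spike-in, and the 9044 clusters over it had a median of 0.03, with 15.9% higher at an unadjusted p under 0.05. No adjusted p in the list was under 0.05.

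Of 10 listed components of Gi signalling, 9 had a cluster and 4 (Gnai1, Gnai2, Gnao1 and Gnb1) were above background on all arrays. In SRvsCT 3 of 9 were higher at an unadjusted p under 0.05: Gnai2, an inhibitory alpha subunit, by 0.22, Gnaz, its relative, by 0.24, and Kcnj9, a channel subunit opened by Gi proteins, by 0.17. Of all clusters 5.72% were higher there, or 12.9% with equal array medians. SRvsSS also had 3 of 9 higher, Gnaz by 0.24, Kcnj5 by 0.22 and Kcnj9 by 0.19, where 2.45% of all clusters were higher, or 4.53% with equal array medians. The median of the list was 0.13 in SRvsCT and 0.19 in SRvsSS, against -0.07 and -0.03 over all clusters. In SSvsCT Kcnj3, another subunit of these channels, was lower by -0.44. Kcnj3, Kcnj5 and Kcnj9 were below background on all arrays, and no adjusted p was under 0.05.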

How the data were processed

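RNA from the nucleus accumbens of 24 rats was hybridised singly to Affymetrix Rat Transcriptome 1.0 arrays. The values deposited by the authors are log2 signals of transcript clusters. Expression Console from Affymetrix is named in the submitters' processing notes. Background correction, normalization, summarisation and the genome build were not given in the sources used here. Another deposited table holds the authors' group averages and standard deviations and their own fold changes and p-values, which were not used. Its gene symbols and positions were used. No pair of arrays held identical values.

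All 68842 clusters entered 1 limma fit of 5 groups (limma 3.58.1, R 4.3.3) with 9 contrasts, two-sided, with Benjamini-Hochberg adjustment over all clusters and a threshold of 0.05. The 1738 control rows were left out of the fit, and 1153 of them served as negative controls. Clusters under the bioB spike-in (mean of 9.45 in CT), which the study's methods leave out, were kept, since the receptors lie under it. Single comparisons also had an exact two-sided permutation test. Correlations used distances from group means and 100000 permutations within groups (Python 3.11.15). The fit was first tested on simulated data. The number of arrays limits the precision.

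The 9 genes and all lists were chosen with earlier results of these data known. All 9 genes are named, and genes of the other pathway lists where their unadjusted p was under 0.05, up to 4 per list and comparison. Some genes that these rules select are not reported here. The cortistatin cluster with its own mRNA was reported beside the selected one after the annotation was read. Alternatives were a bioB filter, quantile normalization, equal array medians, array weights, a trended robust fit, only the groups compared, the replicate number as a block, each array left out, the other Npy cluster and, added after seeing the data, a fit of the CT, SR and SS arrays alone.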

Additional observations from a re-analysis of the deposited data

Results flagged for a closer look

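In 39 sets of values (13 clusters in CT, SR and SS), 3 held an array that lay far from the rest of its group, and chance alone gives about 1 in 20. Sstr1 was 4.11 in SS replicate 4, and the next lowest SS rat had 4.48. Sstr3 was 4.80 in CT replicate 3, and the next CT rat had 4.34. The cluster annotated as 6PGD, which also carries the symbol Cort, was 6.88 in SR replicate 1, and the next lowest SR rat had 7.12. All of these signals were below background.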

How the results depend on the processing

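No member passed the adjusted threshold in any comparison under any alternative run, with 1 exception. In SRvsCT the count of members called rose from 0 to 1 with the bioB filter, with array weights and when SR replicate 1 was left out, and leaving out single arrays gave 0 to 1 called. The 1 was the Kif1b cluster, at 0.25, 0.26 and 0.27 on the log2 scale, and cortistatin's own cluster was not called. The bioB filter tested 9044 clusters and removes all receptors. Over all clusters SRvsCT had 233 calls, against 36 after quantile normalization, 143 in the trended robust fit, 348 with array weights, 50 with the replicate block, 91 with the CT, SR and SS arrays only and none with only the 2 groups compared, and 2 to 1273 with 1 array left out.

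Among the differences of Npy and Sst and the others with an unadjusted p under 0.05, signs changed only for Npy, where the difference was near 0. In Npy YSSvsCT, -0.03 became 0.00597 with equal array medians, 0.00535 with array weights and 0.0171 with the replicate block, and leaving out single arrays gave -0.15 to 0.10. In Npy SRvsYSR, -0.005 became 0.0448 with equal array medians and 0.0197 with array weights, and single arrays left out gave -0.11 to 0.11. They gave -0.0437 to 0.17 for Npy SRvsSS and -0.23 to 0.0184 for Npy YSRvsYSS.

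Rats with the same replicate number did not deviate together: the median correlation was -0.02 over 39 such pairs, with 13 over 0.1, and -0.02 over 186 other pairs. This gave no sign of pairing, but yoked partners need not deviate together. The check therefore cannot tell whether the numbers mark yoked partners, and the comparisons with the yoked groups were not paired. With the number as a block the counts of members called stayed at 0 in all comparisons, and the adjusted p of the Kif1b cluster in SRvsCT was 0.0965.

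Signals below background limit what can be said of the receptors and of cortistatin, and 3 arrays per yoked group limit comparisons with them.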
